A study of Ovis aries with 6 samples.

Results

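Solute carriers are membrane proteins that move amino acids, sugars, ions, metals, nucleotides and metabolites across the cell surface and the membranes of organelles. Array probes were taken as members when their gene name began with SLC and a number, or when their description held "solute carrier", "amino acid transporter", "sodium-coupled" or "monocarboxylate transporter". The glucose transporters SLC2A1 and SLC2A3 were left out. This gave 58 of 15008 gene probes on the array, which stood for 44 of 14224 genes and unnamed transcripts, 30 with 1 probe and 14 with 2. By gene name 33 probes were members, by an older name such as LAT1 another 13, and by description 12. One of the 44 genes, SLC9A3R1, encodes a scaffold of transporters and not a carrier, and was a member only through its name.

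RNA came from cultured sheep cells. One group was 3 samples of epidermal stem cells of the skin and the other 3 samples of epithelial cells of the cornea, with 1 single-colour array a sample. The series' design text calls the samples cell lines. No genotype, treatment, age or animal is given for either group. Whether the 3 samples of a kind came from different animals is not given either, so the p-values speak to the scatter of these 6 samples alone, and that scatter may be technical. The cells of both kinds were adherent when they were harvested with trypsin for RNA.

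Transporters of the SLC families work either as exchangers, which swap one solute for another, or as cotransporters, which use a sodium or proton gradient to pull a solute in. In the cornea, ion and lactate transport is known for keeping the tissue hydrated and clear. In dividing keratinocytes, amino acid uptake is known to feed protein synthesis and growth signalling. Members of the SLC25 family sit mainly in the inner mitochondrial membrane and link the mitochondrial matrix to the cytosol.

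Levels are given as the log2 of the processed signal minus the 75th percentile of its array, so that a probe at that percentile has level 0 and dimmer probes have negative levels. Every mean is followed by its SD (n = 3 arrays). Changes are corneal minus epidermal on the same log2 scale, with the standard error (SE) of the limma fit, and a gene was called when its p, adjusted by Benjamini-Hochberg over all 11241 genes and unnamed transcripts tested, was under 0.05. Levels of different probes cannot be set against each other.

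Between 77.5% and 81.6% of gene spots were well above background on the epidermal arrays and between 72.9% and 75.9% on the corneal arrays, and no spot was saturated. Pairs of arrays correlated over the kept probes at 0.995 to 0.998 within a group and at 0.968 to 0.969 across groups. Probes are not independent of each other. The epidermal arrays lay in row 1 and the corneal arrays in row 2 of 1 slide, so an effect of the row cannot be told apart from one of the cell type. Among kept probes, 17 on corneal replicate 3 were over 4-fold away from both other arrays of the group, against 10 and 10 on the other corneal arrays and 2 to 4 on the epidermal arrays. Markers bore out the epithelial labels only in part. Of 11 keratinocyte markers 6 had a probe and 4 were measured. PPL, a plakin, and SBSN were well above background on all 6 arrays, with levels of 4.09 ± 0.04 in epidermal and 3.56 ± 0.01 in corneal cells for PPL. The keratin KRT15 read above background on 3 epidermal and 1 corneal arrays, KRTDAP on 3 and 0, and the keratin KRT14 on 2 and 0. TP63, a factor of basal keratinocytes, did so on none. Of 7 corneal epithelial markers 2 had a probe: PAX6, the eye regulator, was higher in corneal cells by 0.31 ± 0.07 (SE, adjusted p = 0.0129), and ALDH1A1 was lower, with −4.83 ± 0.05 (SE, adjusted p = 1.71e-07). All 9 mesenchymal markers with a probe were measured, 1 higher and 5 lower in corneal cells. Their summed linear level was 966 to 1.2e+03 times the 75th percentile on epidermal arrays and 934 to 958 times on corneal arrays. Such a sum follows its brightest probes, here those of VIM and DCN, and hides changes of single markers. Among these were FBLN2, with a change of −2.98 ± 0.12 (SE), and FN1, with 0.95 ± 0.03 (SE). Of the immune markers 3 of 9 had a probe and all 3 were lower in corneal cells, with a summed level of 2.04 to 2.18 on epidermal and 1.61 to 1.66 on corneal arrays. Of all features tested, 26.6% were called higher and 32.6% lower in corneal cells. The part of these markers in the results below was not tested. The 2 groups are therefore called epidermal and corneal cells as their labels have it.

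Of the 44 genes, 37 were measured, that is, 3 or more arrays read a probe of theirs well above background. In corneal cells 14 of them were called higher and 7 lower, and 16 were not called. The called share was 56.8%, against 59.2% of all features tested. Higher calls made up 37.8% of the members and 26.6% of all features, and lower calls 18.9% of the members and 32.6% of all features. Changes ran from −2.49 to 1.05 with a median of 0.04, beside −0.04 for all features, and the median size of change was 0.28, beside 0.24. The arrays of the groups did not overlap for 23 members, 62.2%, beside 67.2% of all features. Only 1 gene was called higher by at least 2-fold (3.36% of all features were) and 1 lower (3.99% of all features). For 10 of the 16 genes not called, the 95% interval of the change lay within 0.5 of 0. Of the 37 measured genes 31 were well above background on all 6 arrays. When the fit was held to such probes, 15 of them were called higher and 5 lower. That fit called 62.5% of all its features, and 46.6% of those calls were higher. The other 6 measured genes (SLC12A7, SLC11A1, SLC40A1, SLC4A4, SLC6A2 and SLC2A2) were kept through their 3 epidermal arrays with 0 or 1 corneal arrays above background. Such a probe could hardly come out higher in corneal cells, so the 2 lower calls among them, SLC12A7 and SLC11A1, are a description. In bulk RNA, fewer cells with a transcript and less of it per cell cannot be told apart.

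The count of higher against lower members moved with the scaling of the arrays. Without scaling, which took the median change of all features from −0.04 to −0.21, 5 members were higher and 13 lower. Under quantile normalization 14 were higher and 6 lower, and with median centring 14 and 6. Higher calls were 44.9% of all calls in the main scaling, 49.3% under quantile normalization, 50.5% with median centring and 22.2% without scaling. All changes below are relative to the 75th percentile of each array.

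**Figure D1:**
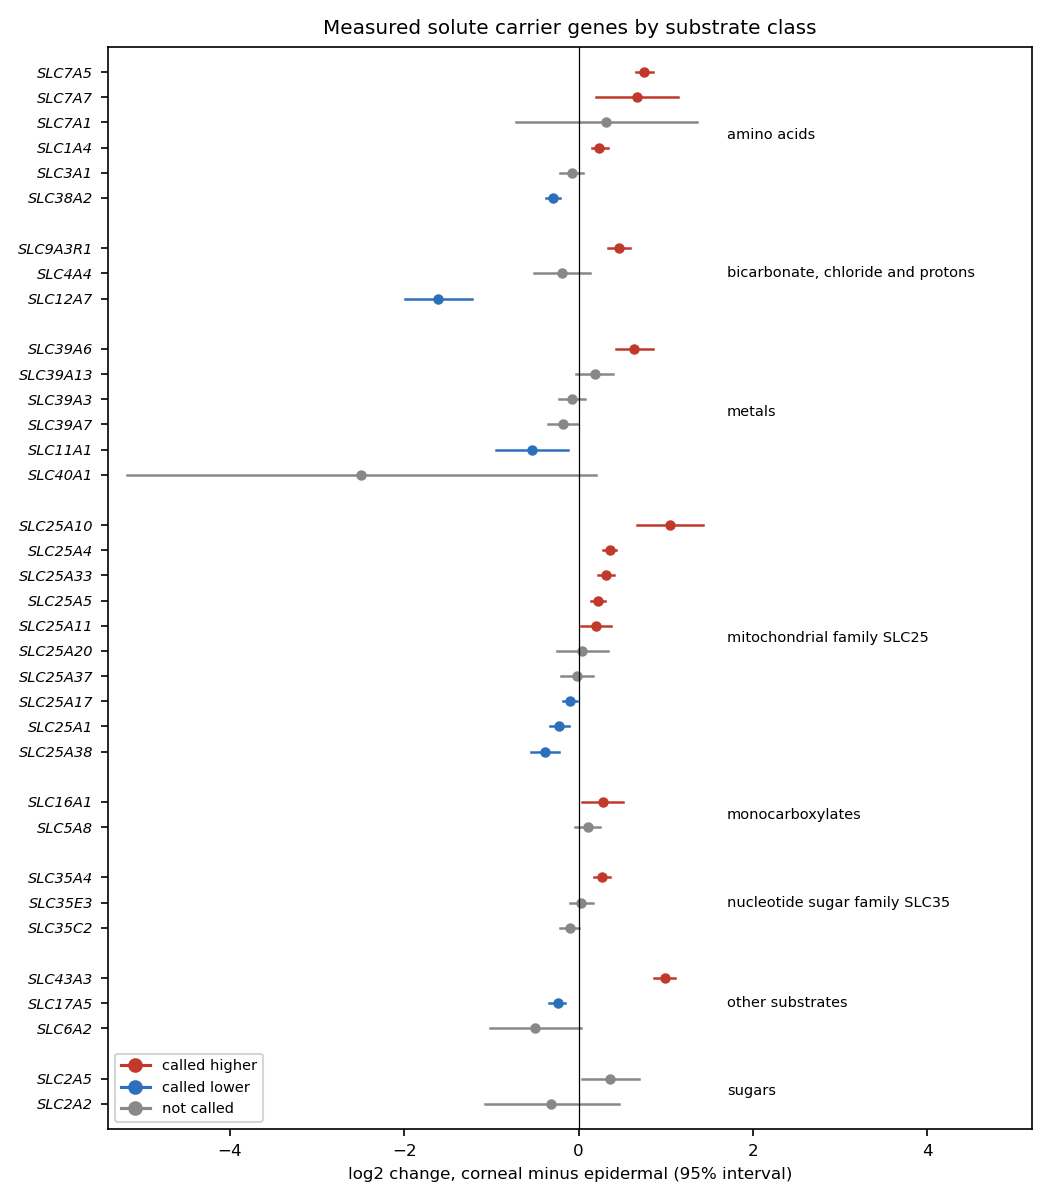
Fitted log2 change of 35 of the 37 measured solute carrier genes, corneal minus epidermal, as points with their 95% intervals, grouped by transported substrate. Red genes were called higher in corneal cells, blue genes lower and grey genes neither, and the interval of SLC40A1 runs from −5.18 to 0.20.

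**Figure D2:**
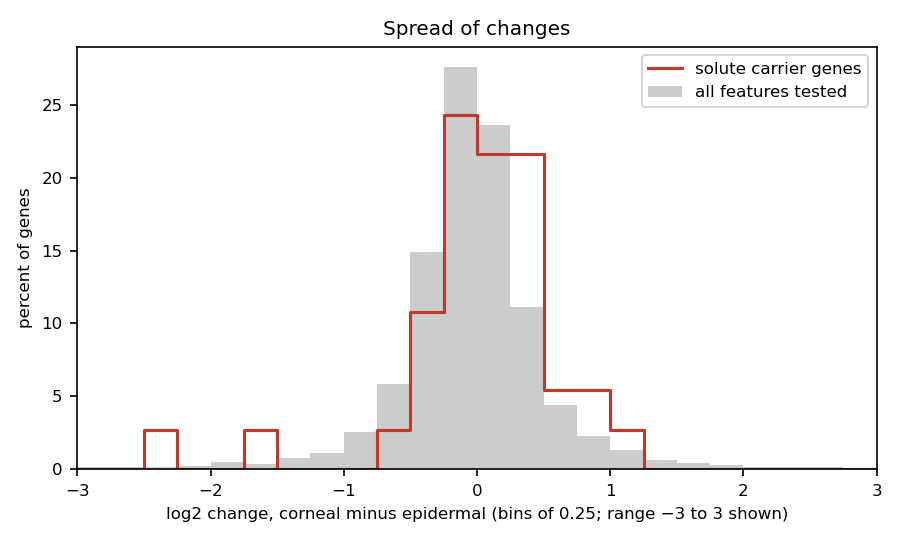
Percent of genes in each bin of log2 change, 0.25 wide, for the 37 solute carrier genes (red line) and for all 11241 features tested (grey bars). Most members lie with the bulk of the features near 0, and 2 members, SLC12A7 and SLC40A1, lie below −1.5.

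Among amino acid carriers, 6 of 10 genes were measured. SLC7A5, SLC7A7 and SLC1A4 were called higher in corneal cells, SLC38A2 lower, and SLC3A1 and SLC7A1 neither. This made 66.7% called, beside 59.2% of all features. The median change of the 6 was 0.28, beside −0.04 for all features. Without scaling of the arrays 1 was higher and 2 were lower.

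SLC7A5, also named LAT1, exchanges intracellular glutamine for leucine and other large neutral amino acids. Its probe is shown because it carried the largest change among the amino acid carriers.
SLC7A5: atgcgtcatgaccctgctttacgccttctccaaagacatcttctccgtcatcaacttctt
The level was −1.46, −1.38 and −1.39 on the epidermal arrays and −0.62, −0.68 and −0.68 on the corneal arrays. All corneal arrays were above all epidermal arrays, and the spread within each group was small. The change was 0.75 ± 0.04 (SE), a 1.69-fold higher signal in corneal cells, with adjusted p = 3.02e-05.

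SLC7A7, which exports cationic amino acids in exchange for neutral amino acids and sodium, was dimmer. It had levels of −5.42, −6.14 and −5.79 on the epidermal arrays and −5.06, −5.27 and −4.99 on the corneal arrays. The groups did not overlap, although the epidermal arrays spread over a wide range. The change was 0.67 ± 0.19 (SE) with adjusted p = 0.0254. That call was lost without corneal replicate 1 (adjusted p = 0.0701), corneal replicate 3 (0.0733) or epidermal replicate 3 (0.0704), and without scaling of the arrays (0.0821). With normexp, another background correction, run without spots of extreme local background, the change was 0.29 (0.00065).

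SLC1A4, an exchanger of serine, alanine and other small neutral amino acids, had levels of 1.60, 1.59 and 1.57 on the epidermal arrays and 1.89, 1.78 and 1.82 on the corneal arrays. Its difference was small but wider than the spread within either group. The change was 0.24 ± 0.04 (SE), with adjusted p = 0.00252, and was no longer called without scaling (0.07, adjusted p = 0.477).

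SLC38A2, a sodium-coupled carrier that takes up small neutral amino acids and is known to be induced when amino acids are short, went the other way. Levels were 3.84, 3.82 and 3.76 on the epidermal and 3.51, 3.52 and 3.53 on the corneal arrays. The 3 corneal arrays were nearly equal and all lay below the epidermal arrays. The change was −0.29 ± 0.03 (SE) with adjusted p = 0.000704.

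SLC7A1, also named CAT1, takes up arginine and lysine. Its probes overlap in 59 bases, shown in capitals because the same stretch of transcript was read differently by the probes on 1 array.
SLC7A1, brighter probe: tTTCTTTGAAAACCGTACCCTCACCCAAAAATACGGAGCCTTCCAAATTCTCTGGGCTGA
SLC7A1, dimmer probe: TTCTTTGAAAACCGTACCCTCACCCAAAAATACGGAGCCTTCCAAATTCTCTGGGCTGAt
The brighter probe had levels of −4.33, −4.41 and −4.41 on the epidermal and −4.51, −4.61 and −3.07 on the corneal arrays. The dimmer probe had −4.63, −4.65 and −4.47 on the epidermal and −4.77, −4.99 and −4.74 on the corneal arrays. On corneal replicate 3 the brighter probe alone was high. The gene's change by the brighter probe was 0.32 ± 0.42 (SE, adjusted p = 0.541), and by the dimmer probe −0.25 ± 0.09 (SE, adjusted p = 0.0477 over probes). Without corneal replicate 3 the change by the brighter probe was −0.17 with adjusted p = 0.0436, so the direction of this gene rests on that array. Its corneal arrays spanned 1.53 on the log2 scale, and 136 kept probes spanned more.

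SLC3A1, the heavy chain of a cystine and dibasic amino acid carrier, was assigned by a partial match in the annotation. Its change was −0.08 ± 0.05 (SE, adjusted p = 0.242), and −0.13 (0.0214) without epidermal replicate 1 and −0.25 (0.00848) without scaling. The glutamate carriers SLC1A1, SLC1A2 and SLC1A3 and the neutral amino acid exchanger SLC7A8 were not measured. Neither probe of SLC1A2, SLC1A3 or SLC7A8 was well above background on any array. One probe of SLC1A1 read −5.05 on epidermal replicate 2, where it was above background, and −9.24 and −8.88 on the other epidermal arrays. The other SLC1A1 probe, which shares 59 bases with it, read −8.56 on that array, so a single probe on a single array carried that signal.

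Genes of amino acid response and use were read from a list of 19, of which 7 were measured. In corneal cells 3 were higher and 4 lower, all 7 called, beside 59.2% of all features. Without scaling ATF4 and GLUD1 lost their calls. SHMT1, which transfers a carbon unit from serine to folate, was higher by 2.70 ± 0.16 (SE, adjusted p = 5.47e-05), by 1.17 (1.87e-06) with normexp without extreme spots, and by 0.23 (0.854) with normexp on all spots. ATF4, the factor that turns on amino acid carriers when amino acids are short, was higher by 0.31 ± 0.03 (SE, adjusted p = 0.000533), and by 0.14 (0.105) without scaling. ARG2, a mitochondrial arginase, had the largest fall of the list, −2.22 ± 0.24 (SE, adjusted p = 0.000602). DDIT3, a factor of the same stress response as ATF4, had a change of −0.50 ± 0.06 (SE, adjusted p = 0.00121), and of −0.19 (0.0102) with normexp without extreme spots. GCLM, a subunit of the enzyme that begins glutathione synthesis, had a change of −0.32 ± 0.04 (SE, adjusted p = 0.000886). PSPH, the last enzyme of serine synthesis, was the remaining lower gene. GLUD1, glutamate dehydrogenase, was the remaining higher gene, with 0.21 ± 0.05 (SE, adjusted p = 0.0156). That value rested on 5 arrays because 1 spot was marked as an outlier. It was −0.99 (0.445), of opposite sign, in the authors' deposited log2 table, and 0.09 (0.331) without scaling.

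Of the carriers of bicarbonate, chloride and protons, 4 of 5 were measured: 1 was called higher, 1 lower and 2 neither. SLC12A7, or KCC4, exports potassium together with chloride and takes part in regulating cell volume. It was assigned by a partial match in the annotation. Its level was −4.61, −4.77 and −4.60 on the epidermal arrays and −5.96, −6.55 and −6.29 on the corneal arrays. Corneal signal was near background, being well above it on 1 of 3 arrays, while all epidermal arrays were well above it. SLC12A7 was the only member called lower by at least 2-fold, with a fitted change of −1.61 ± 0.15 (SE, adjusted p = 0.000372). Because the probe was kept through its epidermal arrays, that value is a description of these arrays. With normexp without extreme spots it was −0.25 (adjusted p = 0.000882), and with probes above background on all 6 arrays the gene was not measured.

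SLC9A3R1, the scaffold that tethers the sodium-proton exchanger SLC9A3 and other carriers, was higher in corneal cells. Levels of its brighter probe were −2.75, −2.77 and −2.84 on the epidermal and −2.24, −2.33 and −2.39 on the corneal arrays. The groups were well apart. The change was 0.46 ± 0.05 (SE, adjusted p = 0.000565), and 0.64 ± 0.08 (SE) by a second probe that overlaps the first in 59 bases. SLC9A3 itself was not measured: one of its probes was well above background on 2 epidermal and 0 corneal arrays.

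SLC4A4, a sodium-bicarbonate cotransporter that corneal endothelium uses to pump fluid, read well above background on 0 of 3 corneal arrays. Its change was −0.19 ± 0.13 (SE, adjusted p = 0.254), and the groups overlapped. Under quantile normalization the change was 0.06 (adjusted p = 0.737), and with normexp without extreme spots 0.14 (0.0755). The probe was kept through its epidermal arrays, so no direction is read for SLC4A4. Of the sodium pump subunits, ATP1B1 was higher in corneal cells by 0.82 ± 0.03 (SE, adjusted p = 7.75e-06) and ATP1B3 was lower there (−0.18 ± 0.05, SE, adjusted p = 0.0266). Of the water and acid-base list 1 gene, AQP5, was measured, and it was not called. AQP1, AQP4, CA3 and CFTR were not measured.

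All 6 metal carriers were measured. In corneal cells 1 was called higher, 1 lower and 4 neither, 33.3% called beside 59.2% of all features. The largest fitted change among all members was in this class. SLC40A1, ferroportin, is the only known exporter of iron from animal cells. Levels were −4.59, −4.29 and −4.45 on the epidermal arrays and −8.50, −7.89 and −4.40 on the corneal arrays. Corneal replicates 1 and 2 were near background while corneal replicate 3 was as high as the epidermal arrays, so the groups overlapped. The change was −2.49 ± 1.08 (SE, 95% interval −5.18 to 0.20, adjusted p = 0.0969). With normexp without extreme spots it was −0.25 (adjusted p = 0.25). SLC40A1 was called lower in 2 alternatives, without scaling (−2.66, adjusted p = 0.0468) and without corneal replicate 3 (−3.75, 0.000238). Without corneal replicate 3, 0 of the 2 remaining corneal arrays were well above background, so that fitted value rests on dim signals. Corneal replicate 3 is the array that matched the epidermal arrays, and the probe was kept through its epidermal arrays. No direction is therefore read for this gene. The corneal arrays spanned 4.10 on the log2 scale for this probe, and only 8 kept probes spanned more. SLC40A1 was also the only member among the 17 probes by which corneal replicate 3 stood apart from its group.

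SLC39A6, or ZIP6, takes up zinc at the cell surface. The brighter of its probes is shown because it carried the only higher call among metal carriers.
SLC39A6: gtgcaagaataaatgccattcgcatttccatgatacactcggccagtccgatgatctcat
It had levels of −1.93, −2.10 and −1.90 on the epidermal and −1.46, −1.21 and −1.33 on the corneal arrays. All corneal arrays lay above all epidermal ones. The change was 0.64 ± 0.08 (SE, adjusted p = 0.00131), and a second probe that shares no base with it had a change of 0.45 ± 0.06 (SE). The other zinc carriers were not called. SLC39A13 had a change of 0.19 ± 0.09 (SE, adjusted p = 0.114), SLC39A3, ZIP3, −0.07 ± 0.06 (0.366) and SLC39A7, which releases zinc from the endoplasmic reticulum, −0.18 ± 0.07 (0.0639). Leaving out 1 array gave calls: 0.26 for SLC39A13 without epidermal replicate 2 (adjusted p = 0.0325) and −0.23 for SLC39A7 without epidermal replicate 3 (0.0404).

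SLC11A1, known for iron and manganese transport in the phagosomes of macrophages, had levels of −5.57, −5.62 and −5.62 on the epidermal and −5.86, −6.51 and −6.03 on the corneal arrays. The corneal arrays were lower and more spread, and 1 of them was well above background. The fitted change was −0.53 ± 0.17 (SE, adjusted p = 0.0363), for a probe kept through its epidermal arrays. Its call was lost without corneal replicate 3 (adjusted p = 0.0593) and without any 1 of the 3 epidermal arrays (0.0839 to 0.094). It was also lost under quantile normalization (−0.29, adjusted p = 0.121), and the sign turned with normexp without extreme spots (0.08, adjusted p = 0.136). No direction is therefore read for this gene. Of 9 immune markers 3 had a probe. All 3 were called lower in corneal cells, beside 32.6% of all features, with fitted changes of −0.30 ± 0.04 (SE) for CD14 and −2.02 ± 0.12 (SE) for FCGR2B. FCGR1A, also kept through its epidermal arrays, was at least 1.6-fold higher in epidermal cells, being above background on 0 corneal arrays. The part of these markers in the SLC11A1 value was not tested.

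Of 14 other genes of metal handling 5 were measured. TF, transferrin, was higher in corneal cells by 2.00 ± 0.04 (SE, adjusted p = 1.1e-06). The ferritin subunits FTH1 and FTL, metallothionein MT3 and the copper pump ATP7B were not called.

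Every one of the 11 members of the mitochondrial SLC25 family was measured. In corneal cells 6 were called higher and 3 lower, 81.8% called beside 59.2% of all features (26.6% higher and 32.6% lower), with a median change of 0.20, but without scaling of the arrays 1 was higher and 4 were lower. SLC25A10 exchanges malate and succinate for phosphate. Its probe is shown because it gave the only call of at least 2-fold higher among all members.
SLC25A10: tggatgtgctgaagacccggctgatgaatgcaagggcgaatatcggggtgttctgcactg
Levels were −4.59, −5.07 and −4.60 on the epidermal arrays and −3.78, −3.54 and −3.80 on the corneal arrays. No epidermal array reached a corneal one. The change was 1.05 ± 0.15 (SE, 95% interval 0.67 to 1.43, adjusted p = 0.00202), a 2.07-fold higher corneal signal. It fell short of 2-fold without scaling of the arrays (0.88) and without epidermal replicate 2 (0.89) or corneal replicate 2 (0.96). With normexp without extreme spots it also fell short (0.48). It stayed called in these settings.

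The ADP/ATP carriers SLC25A4 and SLC25A5, which export mitochondrial ATP in exchange for ADP, are near copies of each other. Their probes are shown because of that likeness. In the best ungapped alignment of the probes to each other, over 29 bases, 19 were identical, marked by capitals.
SLC25A4: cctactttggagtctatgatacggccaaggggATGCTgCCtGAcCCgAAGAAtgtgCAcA
SLC25A5: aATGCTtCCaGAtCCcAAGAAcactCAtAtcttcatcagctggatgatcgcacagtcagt
The overlap covers the end of the one probe and the start of the other. Neither probe was compared with the transcript of the other gene, so the alignment cannot show whether it could read it. Cross-hybridisation was not tested. SLC25A4 had levels of 3.28, 3.28 and 3.27 on the epidermal and 3.67, 3.62 and 3.61 on the corneal arrays. SLC25A5 had levels of 3.78, 3.75 and 3.70 on the epidermal and 3.97, 3.97 and 3.94 on the corneal arrays. Both were higher on every corneal array than on any epidermal one. Changes were 0.36 ± 0.03 (SE, adjusted p = 0.000241) for SLC25A4 and 0.22 ± 0.03 (SE, adjusted p = 0.0022) for SLC25A5. Without scaling they were 0.19 (0.0781) and 0.05 (0.641).

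SLC25A33, a carrier of pyrimidine nucleotides, was higher by 0.31 ± 0.04 (SE, adjusted p = 0.00101), and by 0.14 (0.192) without scaling. SLC25A11, which exchanges 2-oxoglutarate for malate, was higher by 0.20 ± 0.07 (SE, adjusted p = 0.0473). That call was lost without scaling (0.03, adjusted p = 0.85). It was also lost without epidermal replicate 2 (0.0754) or 3 (0.101) and without corneal replicate 1 (0.103), 2 (0.127) or 3 (0.0734).

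Among the lower genes, SLC25A38, which brings glycine into mitochondria for heme synthesis, had levels of −2.98, −3.09 and −3.04 on the epidermal and −3.50, −3.46 and −3.29 on the corneal arrays. The corneal arrays were all lower. Its change was −0.38 ± 0.07 (SE, adjusted p = 0.00394), and −0.14 (0.028) with normexp without extreme spots. SLC25A1, which exports citrate for fatty acid synthesis, had a change of −0.22 ± 0.04 (SE, adjusted p = 0.00669). SLC25A17, a peroxisomal carrier of the family, had a change of −0.10 ± 0.03 (SE, adjusted p = 0.0343). That last call was lost with median centring (0.0971) and without any 1 array other than corneal replicate 1 (0.0573 to 0.112). SLC25A20, which carries acylcarnitines for fatty acid oxidation, had a change of 0.04 ± 0.12 and SLC25A37, the iron carrier mitoferrin 1, of −0.02 ± 0.07 (SE), neither called. Of the mitochondrial partners, VDAC1 and TIMM9 were measured and neither was called.

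Both monocarboxylate carriers were measured and 1 was called higher. SLC16A1, or MCT1, moves lactate and pyruvate with a proton. The brighter of its probes had levels of 2.33, 2.65 and 2.61 on the epidermal and 2.74, 2.88 and 2.81 on the corneal arrays. Epidermal replicate 1 was low and the gap between the groups was small. The change was 0.28 ± 0.09 (SE, adjusted p = 0.0469), while a dimmer probe sharing no base had a change of 0.06 ± 0.11 (SE, adjusted p = 0.688 over probes). The call was lost when the probes were averaged (adjusted p = 0.177), without scaling (0.216), without epidermal replicate 3 (0.0648) and without corneal replicate 1 (0.0672), 2 (0.126) or 3 (0.104). SLC5A8, the sodium-coupled carrier of short-chain monocarboxylates, had a change of 0.11 ± 0.06 (SE, adjusted p = 0.158), and of 0.16 (0.0399) without corneal replicate 2.

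BSG, basigin, which brings SLC16A1 to the cell surface, had a change of 0.16 ± 0.13 (SE, adjusted p = 0.311). Of 10 genes of lactate and pyruvate metabolism 4 were measured. Beside 26.6% of all features, 3 of these 4 were called higher in corneal cells. These were MPC1, by 0.94 ± 0.04 (SE, adjusted p = 1.42e-05), and MPC2, by 0.39 ± 0.03 (0.000251), which together form the mitochondrial pyruvate carrier, and LDHA, lactate dehydrogenase, by 0.48 ± 0.03 (5.31e-05). PKM, pyruvate kinase, was not called, with a change of 0.01 ± 0.06 (SE).

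**Figure D3:**
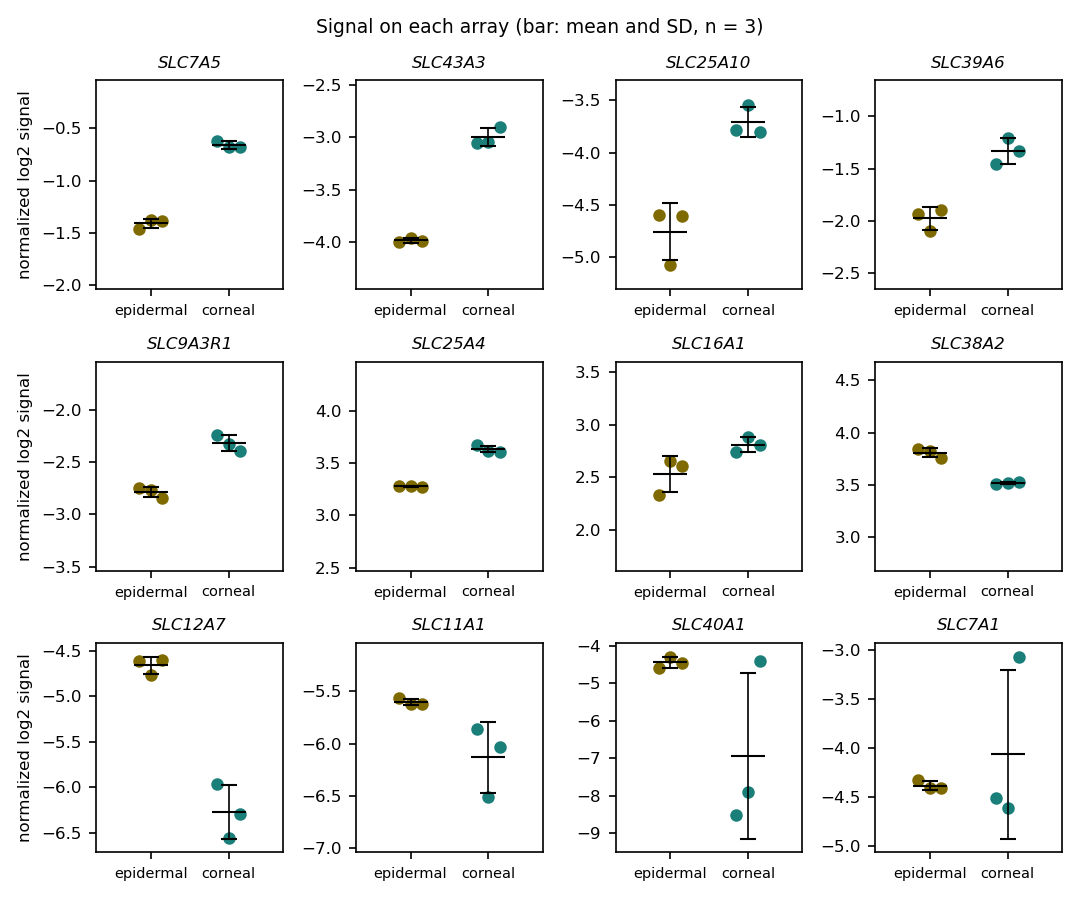
Level of 12 solute carrier genes on each of the 6 arrays (points), with the mean and SD of each group (bars, n = 3) and a separate log2 axis for each gene. SLC7A5, SLC43A3 and SLC25A10 separate the groups fully, while for SLC40A1 and SLC7A1 corneal replicate 3 (the right-hand corneal point) lies away from the other corneal arrays.

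Carriers of the SLC35 family bring nucleotide sugars into the Golgi and endoplasmic reticulum, where glycans are built. All 3 were measured and 1 was called higher, 33.3% called beside 59.2% of all features. SLC35A4 had levels of −0.38, −0.34 and −0.30 on the epidermal and −0.04, −0.06 and −0.11 on the corneal arrays. Corneal arrays were all higher. The change was 0.27 ± 0.04 (SE, adjusted p = 0.00132), and 0.10 (0.252) without scaling. SLC35C2 and SLC35E3, with changes of −0.10 ± 0.04 (SE, adjusted p = 0.094) and 0.03 ± 0.05 (SE), were not called.

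In the class of other substrates 3 of 4 genes were measured. SLC43A3, a carrier of purine bases such as adenine, had the second largest called rise among the members. Its probe is shown for that reason.
SLC43A3: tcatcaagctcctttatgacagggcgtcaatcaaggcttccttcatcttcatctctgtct
Levels were −4.00, −3.96 and −3.99 on the epidermal and −3.05, −3.04 and −2.90 on the corneal arrays. The arrays of each group lay close together and far from the other group. The change was 0.99 ± 0.05 (SE, adjusted p = 2.53e-05), a 1.98-fold higher corneal signal, just under the 2-fold threshold that SLC25A10 passed. With normexp without extreme spots it was 0.64 (1.79e-05).

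SLC17A5, sialin, which exports sialic acid from lysosomes, had levels of 1.55, 1.60 and 1.58 on the epidermal and 1.31, 1.40 and 1.30 on the corneal arrays by its brighter probe. It was lower on every corneal array. The change was −0.24 ± 0.04 (SE, adjusted p = 0.00265), and a second probe with no shared base had a change of −0.22 ± 0.03 (SE). SLC6A2, the noradrenaline transporter of nerve endings, was near background. Its change was −0.50 ± 0.21 (SE, adjusted p = 0.0907). SLC6A2 was called in 2 alternatives, without epidermal replicate 2 (−0.67, adjusted p = 0.0361) and without scaling (−0.67, 0.0354). Under quantile normalization the change was −0.25 (0.381), and with normexp without extreme spots −0.03 (0.72). The probe was kept through its epidermal arrays, so no direction is read for it. SLC34A1, the phosphate carrier of the kidney tubule, read well above background on 0 of 6 arrays.

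Of the sugar carriers, 2 of 3 were measured and none was called by limma. SLC2A5, the fructose transporter, had levels of −5.91, −6.32 and −6.09 on the epidermal and −5.91, −5.57 and −5.73 on the corneal arrays. The groups touched at −5.91. Its change was 0.36 ± 0.13 (SE, adjusted p = 0.0584). SLC2A5 passed the threshold in 6 alternatives, among them quantile normalization (0.59, adjusted p = 0.0139) and leaving out epidermal replicate 1 (0.46, 0.0335) or corneal replicate 1 (0.45, 0.0441). In 12 it did not, among them no scaling (0.19, 0.339) and leaving out epidermal replicate 2 (0.26, 0.134) or corneal replicate 2 (0.28, 0.15). A second probe, well above background on 0 arrays, had a change of 0.04. SLC2A2, the glucose transporter of liver and pancreatic beta cells, had a change of −0.31 ± 0.31 (SE, adjusted p = 0.426). SLC5A1, the sodium-glucose cotransporter of the gut, read well above background on 0 of 6 arrays.

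For 6 genes both probes were measured. In 5 of them the changes had the same sign, and SLC7A1 was the exception.

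**Figure D4:**
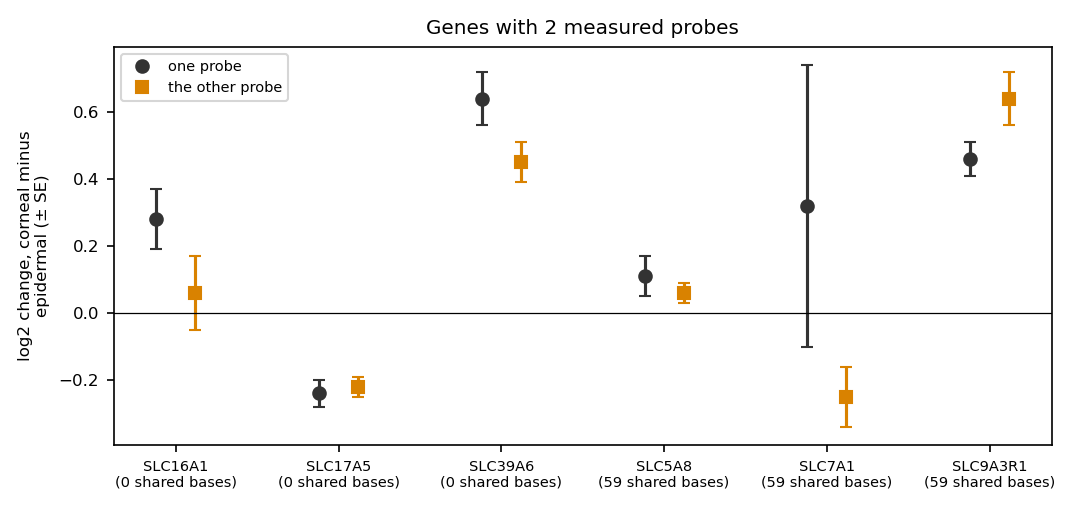
Log2 change, corneal minus epidermal, by each of 2 measured probes of a gene, with the SE as bars and the number of bases the probes share under each name. SLC17A5 and SLC39A6 gave like values by probes that share no base, and SLC7A1 gave opposite signs by probes that share 59 bases.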

How the data were processed

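Per the labels, the authors labelled RNA with Cy3 and hybridised it to Agilent sheep arrays. Per the submitters' processing notes, Agilent Feature Extraction 10.7 read the scans. The deposited intensity used was the processed signal, background-subtracted and detrended per the file headers. The authors' deposited log2 table, made by steps not given in the sources used here, was an alternative.

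Each array's log2 signals were centred on their 75th percentile, and the spots of 1 probe were averaged, leaving out spots marked as outliers (0 member probes had one). A probe was kept if 3 or more of the 6 arrays read it well above background, as 11742 of 15008 did. A gene was its kept probe of highest mean. limma 3.58.1 in R 4.3.3 (lmFit, eBayes, Benjamini-Hochberg) compared corneal with epidermal arrays without a block. The procedure was tested on simulated data. Where no array of a group was above background, the other group is given as at least N-fold higher, taking for each dim array its lowest signal well above background, or the probe's own where that is higher. Adjusted p-values belong to the fitted changes, not to the bounds.

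The members, the substrate classes and the lists of partner genes were chosen with earlier results of these data known. Of the 37 measured members 35 are named, and some items are not reported here. The rule for partner genes was up to 3 called genes of a list in each direction by size of change; partner and marker genes named otherwise were named after their values were seen. Symbols came from the arrays' annotation, and 43 of the 44 were in a table of sheep RefSeq genes. Old names such as LAT1 were matched by hand. Probe sequences are the arrays' own. The files name no genome build, so no coordinates are given. Alternatives were other scalings, background corrections, filters, probe rules, member rules, a replicate block and leaving out each array. With 3 arrays a group, the number of arrays limits the precision.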

Additional observations from a re-analysis of the deposited data

How the results depend on the processing

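The main counts were 14 members higher and 7 lower, 1 of each by at least 2-fold, with a median change of 0.04. Without scaling of the arrays 5 were higher and 13 lower, 0 and 2 by at least 2-fold, with a median of −0.13. With normexp background correction 0 were called in either direction and the median was −0.19. That setting called only 3.44% of all features, and epidermal replicate 1 had 7 spots of extreme local background. It reversed the fitted changes of SLC25A10 (−0.36), SLC25A11 (−0.19), SLC25A33 (−0.10), SLC43A3 (−0.12), SLC7A7 (−0.64) and SLC9A3R1 (−0.16), none of them called (limma adjusted p from 0.617 to 0.911). Without those spots the same correction gave 17 members higher and 6 lower, with a median of 0.14, and called 60.1% of all features. In that rerun 0 members were beyond 2-fold in either direction, and SLC11A1 turned to 0.08. With members by GeneName alone 9 were higher and 4 lower, 0 of the latter by 2-fold. Members higher by at least 2-fold were 2 under quantile normalization, median centring, the deposited log2 table and no filter on dim probes. With probes well above background on all 6 arrays, 0 were lower by 2-fold and the median was 0.20. Beyond the rerun without spots of extreme local background, no cause was tested. Fewer genes were measured by GeneName alone (23) and with the all-array filter (31). SLC7A1 was −0.25 by its dimmest kept probe and from −0.17 (without corneal replicate 3) to 0.59 with 1 array left out.

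Leaving out each array in turn gave 10 to 14 higher, 6 to 7 lower, 0 to 2 and 1 to 2 by at least 2-fold, and a median of 0.01 to 0.12. With a replicate block 12 were higher and 6 lower, with SLC25A11 (adjusted p = 0.0928) and SLC25A17 (0.0986) among those no longer called and 52.9% of all features called. Deviations of same-numbered arrays correlated at 0.02, −0.02 and 0.04. Nothing in the labels ties same-numbered samples, and these values cannot settle whether they share an origin or a preparation. Of the 21 called members, 0 stayed called in every alternative, and normexp on all spots called 0 members. Outside both normexp settings, 10 stayed called in the same direction in every alternative in which they were measured. With normexp without extreme spots 0 called members lost their call with the sign kept, and 1, SLC11A1, changed sign. Dim probes, with corneal signal well above background on 0 or 1 arrays, limit SLC12A7, SLC40A1, SLC11A1, SLC4A4, SLC6A2 and SLC2A2.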

Other observations

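Transporters whose annotation did not meet the wording of the member rule were looked at after their values were seen. Of 16 such genes and transcripts 11 were measured, of which 5 were higher in corneal cells, 2 lower and 4 not called (limma). Of all features 26.6% were called higher and 32.6% lower. SLCO2A1, the prostaglandin transporter, was higher by 0.73 ± 0.06 (SE, adjusted p = 0.000198). The mitochondrial carrier homologs MTCH1 and MTCH2 were higher by 0.69 ± 0.18 (SE, 0.0186) and 0.66 ± 0.05 (SE, 0.000127). A transcript annotated as a 2-oxoglutarate/malate carrier, like SLC25A11, was higher by 0.36 ± 0.05 (SE, 0.00137), and the zinc transporter ZIP1 by 0.26 ± 0.05 (SE, 0.00717). A system N amino acid transporter had a change of −0.66 ± 0.05 (SE, 0.000137) and the mitochondrial S-adenosylmethionine carrier of −0.22 ± 0.04 (SE, 0.0069). A second transcript annotated as ZIP13 was not called (0.06 ± 0.04, SE), like the member SLC39A13. Without scaling the calls of MTCH1 (0.52, adjusted p = 0.0696), the 2-oxoglutarate/malate carrier (0.19, 0.0512) and ZIP1 (0.08, 0.423) were lost. With normexp background correction without spots of extreme background SLCO2A1 had 0.39 and the system N transporter −0.29, both still called.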
